A study of Mus musculus with 32 samples.

Results

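Small leucine-rich proteoglycans (SLRPs) are secreted matrix proteins with a core of leucine-rich repeats, and most carry chondroitin, dermatan or keratan sulfate chains. They bind collagen fibrils, set fibril spacing and hold growth factors such as TGF-β in the matrix, and in lung they are made mainly by fibroblasts. Osteoglycin, encoded by Ogn, is a member of this family, and the question addressed here was whether adding OGN protein to lung organoid cultures moved only Ogn transcripts or those of its relatives too. The group comprised 7 listed genes, namely Ogn, decorin (Dcn), lumican (Lum), biglycan (Bgn), fibromodulin (Fmod), Prelp and asporin (Aspn), taken as rows of the table of raw read counts whatever their change. Rows were present for 5 of the 7, which are 5 of the 11818 genes in the table. Fmod and Aspn had no row and are not analysed here. Every gene in the table had at least 1 count in every library, so the comparisons hold only genes detected throughout.

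The table held 32 libraries, 4 in each of 8 conditions. Freshly isolated CD31-/CD45-/Epcam+ lung cells from 4 naive adult C57BL/6J mice were mixed with CCL206 fibroblasts, an established mouse lung line. Proliferation of this line had been blocked with mitomycin C. The mixtures grew in Matrigel for 72 h with vehicle, extracellular vesicles (EVs), soluble factors (SFs) or recombinant human OGN at 10 µg/mL. The EVs and SFs were purified from the medium of MRC5 human lung fibroblasts. Each culture was then separated with Epcam microbeads into Epcam+ cells and a CCL206 fraction, so every mouse gave 1 library for each population under each treatment, and the 4 CCL206 libraries of a condition are the same line cultured with cells of 4 mice. All 8 conditions share the mitomycin C-treated line, and no genotype beyond the strain is given in the sources used here.

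Total counts ranged from 1805914 to 17675454 per library. Levels are given as CPM, read counts divided by the TMM-scaled library size. Epcam CPM in CCL206 libraries was 3.94% ± 1.12 (SD, n = 4) of that in the Epcam+ libraries of the same vehicle cultures, and the median of 7 fibroblast genes in Epcam+ libraries was 22.5% ± 3.98 (SD, n = 4) of the CCL206 level. RNA left from the other population and the cells' own transcripts cannot be told apart in these values. Of 8 listed fibroblast markers 7 were in the table, of 6 epithelial markers 6, of 10 alveolar type 2 markers 10, of 6 mesothelial markers 3, of 4 leukocyte markers 2, of 5 myofibroblast markers 1 and of 4 endothelial markers 0. The log2 CPM of each library, minus the mean of the 4 vehicle libraries of its population, was correlated with transcript length. It fell with length in all 4 EV-treated CCL206 libraries (Spearman across genes -0.29, -0.54, -0.34 and -0.58 in mice 1 to 4). In the 4 SF-treated CCL206 libraries the values were -0.25 to -0.05. In CCL206 vehicle libraries, which form the mean, they were -0.14 to 0.16. The EV-treated CCL206 libraries of mice 2 and 4 stood furthest apart, against -0.34 to 0.32 in the other 30 libraries. The EV calls in CCL206 are given with and without these 2. Leaving them out does not remove the trend in mice 1 and 3. In such bulk samples fewer cells of a type and less RNA per cell cannot be told apart.

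Ogn lies on mouse chromosome 13 (GRCm38.p6, positions 49608015 to 49624501, plus strand), Bgn on chromosome X (73483601 to 73495936, plus strand) and Prelp on chromosome 1 (133910304 to 133930102, minus strand). Dcn (97479500 to 97518163) and Lum (97565501 to 97572703) are neighbours on chromosome 10, 47338 bases apart. Promoter sequence from RefSeq (GRCm38.p6) was matched for Ogn, Bgn and Prelp, and it is shown because Ogn and Prelp fell together with OGN in CCL206 fibroblasts while Bgn did not pass the test. Each line runs 5′ to 3′ on the gene's own strand, from 250 bases before the RefSeq start up to the first base of any annotated transcript, and capitals in the Ogn line mark 2 overlapping matches to the TATA letters on opposite strands. The Prelp window belongs to a start inside the annotated span of the gene.
Ogn (chr13:49607765-49607872, plus strand): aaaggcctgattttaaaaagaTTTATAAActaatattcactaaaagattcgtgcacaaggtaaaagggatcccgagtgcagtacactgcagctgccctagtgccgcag
Prelp (chr1:133921415-133921651, minus strand): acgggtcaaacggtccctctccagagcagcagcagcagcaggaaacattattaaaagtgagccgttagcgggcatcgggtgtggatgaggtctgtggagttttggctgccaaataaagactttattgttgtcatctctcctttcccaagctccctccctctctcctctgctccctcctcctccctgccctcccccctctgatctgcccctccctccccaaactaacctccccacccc
Bgn (chrX:73483351-73483600, plus strand): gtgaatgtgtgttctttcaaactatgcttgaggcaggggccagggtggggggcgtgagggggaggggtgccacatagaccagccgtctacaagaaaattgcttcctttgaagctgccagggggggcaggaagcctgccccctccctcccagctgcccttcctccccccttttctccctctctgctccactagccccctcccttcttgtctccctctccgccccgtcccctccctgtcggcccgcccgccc
In the window from 250 bases before to 50 bases after the start, both strands were searched for TATAAA, which are the letters of the TATA box, and for GGAATG, which TEAD factors bind. They were also searched for TGANTCA (AP-1), TTCNNNGAA (STAT), CACGTG (E-box), and the NF-kB and CArG box motifs by name. Ogn held 2 TATAAA matches, the first at position -229, and 1 GGAATG match at position -86, beyond the stretch printed. Prelp and Bgn held 0 matches to the 7 motifs. Among 32851 promoters of that length, TATAAA occurred in 13.6%, GGAATG in 14.7%, TGANTCA in 7.81%, TTCNNNGAA in 8.3%, CACGTG in 7.15%, NF-kB in 8.46% and the CArG box in 1.63%, so a match to TATAAA or GGAATG is common.

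In vehicle cultures the 5 genes differed widely in level. Divided by the length of the longest annotated transcript, the mean CPM per kb in CCL206 fibroblasts was 726 ± 48.4 (SD, n = 4) for Bgn, 88.7 ± 5.77 for Dcn, 20.3 ± 1.29 for Lum, 8.58 ± 0.92 for Ogn and 4.90 ± 0.34 for Prelp. The ranges of neighbours in this order did not overlap over the 4 libraries, and the order was the same when the median length of the coding transcripts was used. Mouse Ogn, whose human protein was added, was thus among the lower of the 5 in the fibroblast line. It made up 1.01% ± 0.10 (SD, n = 4) of their summed CPM per kb, while Bgn made up 85.6% ± 0.61.

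All 5 genes were lower in Epcam+ than in CCL206 libraries of the same vehicle cultures, in a comparison where 69.6% of 11805 genes were called, 34.3% lower and 35.3% higher in Epcam+ libraries. Called here means an adjusted p under 0.05 in edgeR's quasi-likelihood test with Benjamini-Hochberg adjustment over all tested genes. The p-values measure the spread left after the terms for mouse, treatment and population, pooled over all libraries of a fit, EV-treated ones included. These were 32 libraries here and 16 for treatments compared within a population. The log2 difference was -2.27 for Ogn (SE 0.22, adjusted p = 1.8e-10), -2.34 for Dcn (SE 0.12), -2.15 for Lum (SE 0.14), -2.46 for Bgn (SE 0.15) and -2.60 for Prelp (SE 0.31). Ogn in Epcam+ libraries was 21.1% ± 7.63 (SD, n = 4) of the level in the paired CCL206 library, Dcn 19.8% ± 3.68, Lum 22.7% ± 6.36, Bgn 18.2% ± 1.58 and Prelp 16.8% ± 5.52. These values lay around the 22.5% ± 3.98 of the 7 fibroblast genes, a median of unlike members. Of the 7, 6 were lower in Epcam+ libraries, by log2 differences from -2.39 to -1.70, while Fbln1, the matrix protein fibulin-1, was higher (3.19, adjusted p = 4.3e-09). Fbln1 stood at 35.7 CPM or less in each of the 32 libraries, so it adds little to the summed marker CPM given below. The part of fibroblasts left in the Epcam+ fraction in the results below was not tested.

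Of 11 other listed SLRP genes 3 had a row. Podnl1, a podocan-like member, followed the same pattern (log2 difference -2.33, SE 0.33, adjusted p = 3.7e-07). Tsku, the secreted BMP and Wnt modulator tsukushi, did not (log2 difference -0.06, 95% interval -0.30 to 0.17), and its Epcam+ level was 95.1% ± 8.94 (SD, n = 4) of the CCL206 level. Chadl, chondroadherin-like, differed by -0.23 (95% interval -1.17 to 0.70) at 32 counts or fewer in each vehicle library.

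**Figure D1:**
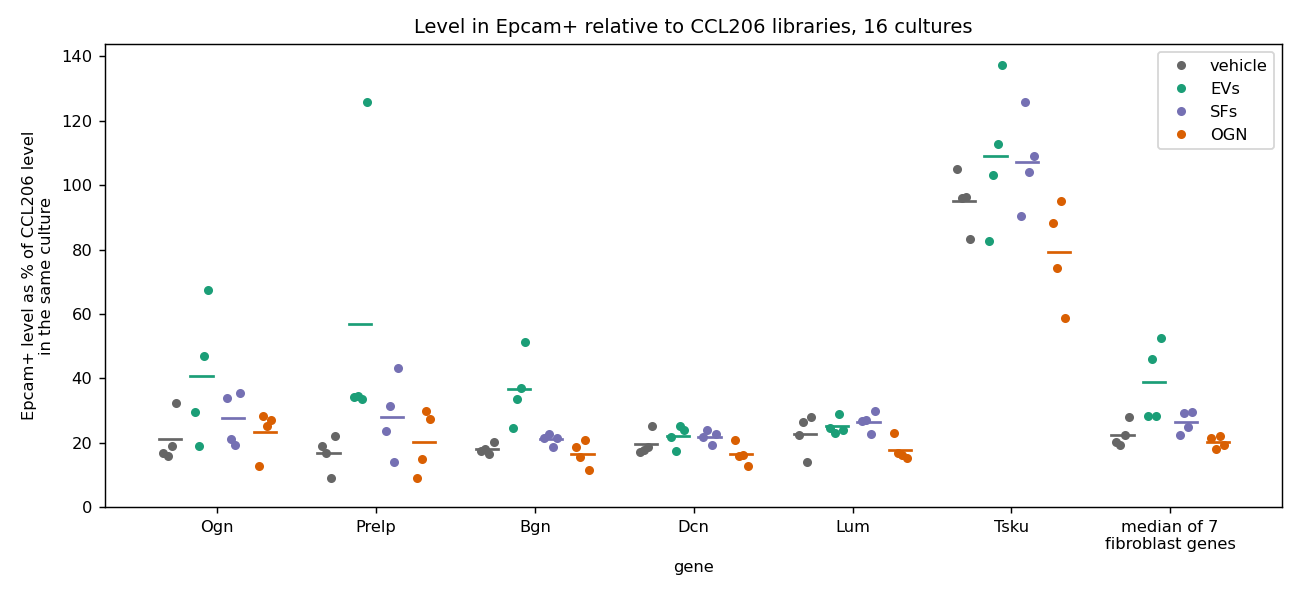
Level of each gene in an Epcam+ library as a percent of its CPM in the CCL206 library of the same culture (linear axis from 0), for 16 cultures coloured by treatment, where points are cultures and lines are means of 4. Ogn, Prelp, Bgn, Dcn and Lum sat near the median of the 7 fibroblast genes with vehicle, at 16.8% to 22.7% on average, and Tsku sat at 95.1%.

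Adding OGN lowered Ogn in CCL206 fibroblasts. In mice 1 to 4 Ogn stood at 45.7, 40.0, 50.3 and 50.9 CPM with vehicle and at 19.6, 15.0, 17.4 and 22.8 CPM with OGN. All 4 OGN libraries were below all 4 vehicle libraries, and Ogn was lower in 4 of 4 mice. The log2 fold change was -1.34 (SE 0.16, adjusted p = 6.4e-05), a level 0.396 times that with vehicle. Here 4.56% of 11689 genes were called, 1.86% lower and 2.7% higher, and 16.2% of all genes had ranges of OGN and vehicle libraries that did not overlap. The call held under each of 12 other settings, with log2 fold changes from -1.40 to -1.26.

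Prelp, a heparin- and collagen-binding SLRP of connective tissue, also fell in these fibroblasts. It stood at 24.3, 28.4, 26.9 and 27.9 CPM with vehicle and at 11.7, 15.0, 11.5 and 10.8 CPM with OGN. The groups did not overlap, and the log2 fold change was -1.14 (SE 0.23, adjusted p = 0.0067). Without mouse 2 the adjusted p was 0.064 and without mouse 3 it was 0.083, with log2 fold changes of -1.23 and -1.11. The call held without mouse 1 and without mouse 4.

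Dcn and Lum moved the other way. Dcn, a dermatan or chondroitin sulfate SLRP that binds type I collagen and TGF-β, stood at 534, 576, 508 and 584 CPM with vehicle and at 1398, 1524, 1370.3 and 1516 CPM with OGN. Its log2 fold change of 1.40 (SE 0.09, adjusted p = 2.1e-07) had the seventh smallest p among all tested genes, and the change in each mouse lay between 1.38 and 1.43. Lum, a keratan sulfate SLRP that regulates fibril assembly, stood at 88.1, 80.1, 79.0 and 89.3 CPM with vehicle and at 143, 156, 180.1 and 163 CPM with OGN. Every OGN library was above every vehicle library for both genes, and Lum rose by 0.93 on the log2 scale (SE 0.11, adjusted p = 4.8e-05).

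Bgn, a close relative of Dcn and the most abundant of the 5 per kb, did not pass the test. It stood at 2014, 2172, 2159 and 2367 CPM with vehicle and at 1848, 2049, 1756 and 2072 CPM with OGN, and the groups overlapped. Its log2 fold change was -0.18 (95% interval -0.49 to 0.14, adjusted p = 0.653). With the EV-treated libraries left out of the fit, the same shift of -0.17 was called (adjusted p = 0.029). That fit called 15.1% of all genes, against 4.56% in the fit with all 4 treatments. In the fit with all treatments, 4 of the 5 genes were called in CCL206 fibroblasts, 2 lower and 2 higher.

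In Epcam+ libraries the 5 genes took the same directions, with fewer calls. Ogn stood at 7.70, 6.43, 9.57 and 16.5 CPM with vehicle and at 2.48, 4.28, 4.40 and 6.18 CPM with OGN. The highest OGN library was just below the lowest vehicle library, and the counts behind these values were low, 20 to 130 with vehicle and 14 to 60 with OGN. The log2 fold change was -1.17 (SE 0.27, adjusted p = 0.017), where 2.7% of 11716 genes were called, 1.22% lower and 1.48% higher, and 6.09% of all genes had ranges that did not overlap. This call was less firm than that in the fibroblast line. Without the mouse term the adjusted p was 0.075, and over 12 other settings it ranged from 0.0020 to 0.109 and was under 0.05 in 7, with log2 fold changes from -1.32 to -1.08. Leaving out mouse 1, 3 or 4 gave 0.109, 0.090 and 0.105, and leaving out mouse 2 gave 0.025.

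Dcn in Epcam+ libraries stood at 92.1, 103, 95.5 and 147 CPM with vehicle and at 289.8, 244, 223 and 194 CPM with OGN. The groups did not overlap, and Dcn rose by 1.14 on the log2 scale (SE 0.12, adjusted p = 2.9e-06), a call kept in each of 12 other settings. Lum stood at 19.7, 21.2, 11.0 and 25.1 CPM with vehicle and at 33.0, 26.2, 29.1 and 25.0 CPM with OGN, groups that overlapped. Its log2 fold change was 0.60 (95% interval 0.25 to 0.95, adjusted p = 0.060), which did not pass, although DESeq2 (adjusted p = 0.018) and the fit without mouse 4 (adjusted p = 0.019) called it. In all, 2 of the 5 genes were called in Epcam+ libraries, Ogn lower and Dcn higher.

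Prelp and Bgn were not called in Epcam+ libraries. Prelp stood at 4.62, 4.82, 2.44 and 6.14 CPM with vehicle and at 1.06, 2.23, 3.45 and 2.96 CPM with OGN, on 6 to 78 counts, and its log2 fold change was -0.78 (95% interval -1.56 to 0.00, adjusted p = 0.382). At this depth a change of the size seen in CCL206 fibroblasts lay within the interval. Bgn stood at 354, 391, 360.2 and 483 CPM with vehicle and at 344, 318, 366 and 237 CPM with OGN, and its log2 fold change was -0.32 (95% interval -0.57 to -0.07, adjusted p = 0.211). The groups overlapped for each of these genes.

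The summed CPM of the 7 fibroblast markers in Epcam+ libraries ranged from 2115 to 2941 with vehicle and from 1800 to 2350 with OGN, and none of the 7 was above 0 in log2 fold change (median -0.31, against 0.00 over all genes). Col6a1 (-0.64) and Col6a2 (-0.83), subunits of type VI collagen, were called lower. The lowest log2 fold change among the 7 was -0.83, beside -1.17 for Ogn and 1.14 for Dcn. Whether Ogn or Dcn differed from the 7 was not tested. In CCL206 fibroblasts the same sum ranged from 10837 to 12189 with vehicle and from 10436 to 11285 with OGN, and Col6a2 (-0.46) was called lower of 7 markers between -1.18 and 0.02. The 6 epithelial markers were all above 0 in CCL206 fibroblasts with OGN (1 called), their summed CPM being 170 to 447 with vehicle and 276 to 532 with OGN. Of the leukocyte list only Cd68 and Lyz2 had a row, while Ptprc and Adgre1 did not. The summed CPM of these 2 was 49.7 to 119.9 with vehicle and 104 to 216 with OGN in that population. In Epcam+ libraries it was higher, 186 to 253 and 299.5 to 405. By edgeR's test of OGN against EVs in Epcam+ cells Lyz2 was higher (0.71, adjusted p = 4.5e-05) and Cd68 was not called (-0.05, adjusted p = 0.971). By that test against SFs neither was called (Lyz2 0.23, adjusted p = 0.208, and Cd68 0.27, adjusted p = 0.789). With Ptprc and Adgre1 absent, the sum is not read as leukocyte content. Acta2, the only myofibroblast marker in the table, was at 6.10 to 10.3 CPM with vehicle and 2.84 to 6.45 CPM with OGN in Epcam+ libraries (log2 fold change -0.70, adjusted p = 0.12), and at 17.6 to 25.3 and 9.67 to 23.2 CPM in CCL206 libraries (-0.48, adjusted p = 0.323). No marker in the table was at 0 in any library, and the part of these shifts in the results for the 5 genes was not tested.

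With OGN, Ogn and Dcn again lay near the fibroblast genes in this share. Ogn in Epcam+ libraries was then 23.4% ± 7.26 (SD, n = 4) of its level in the paired CCL206 library and Dcn was 16.5% ± 3.27, beside 20.2% ± 1.90 for the median of the 7 fibroblast genes.

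**Figure D2:**
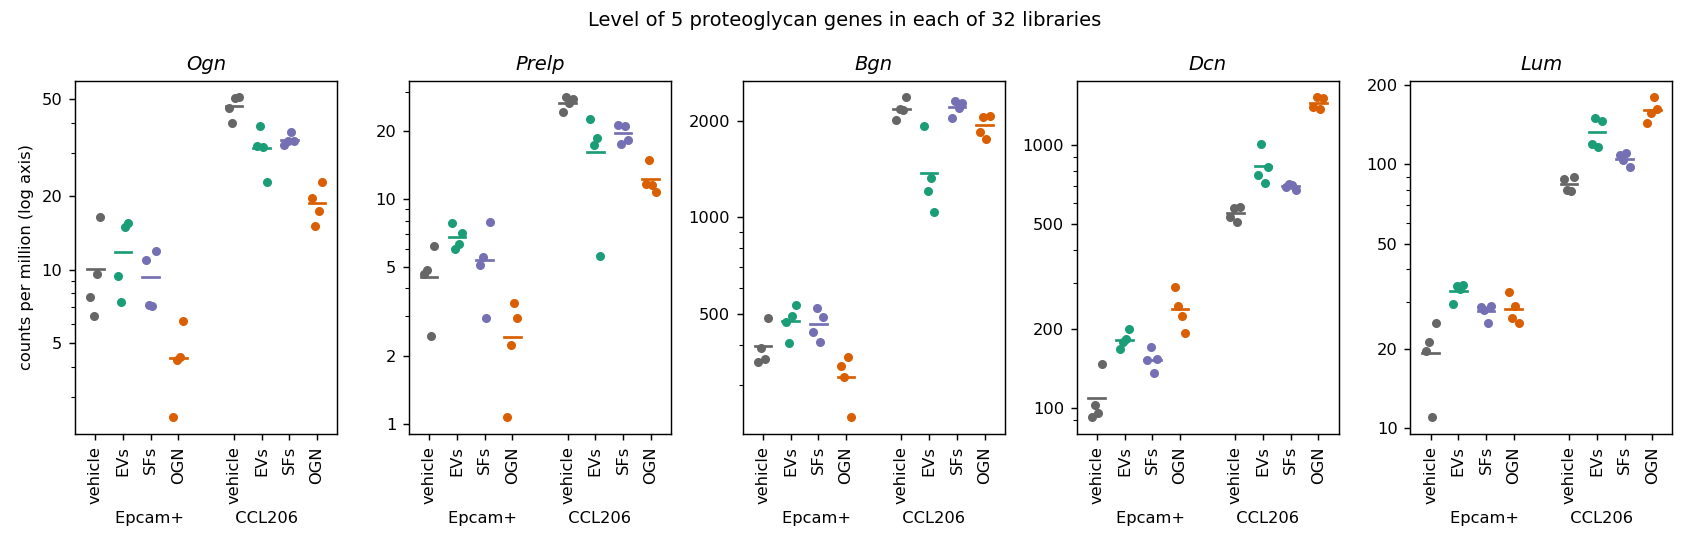
CPM of each gene (log axis) in each of 32 libraries, grouped by population and treatment, with a line at the mean of 4 libraries. With OGN, Ogn was at 15.0 to 22.8 CPM in CCL206 libraries against 40.0 to 50.9 with vehicle, while Dcn was at 1370 to 1524 against 508 to 584.

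The change with OGN was not shown to differ between the populations for any of the 5 genes. In the test of the treatment by population interaction 0 of 5 were called, where 0.551% of 11805 genes were, 0.407% lower and 0.144% higher in Epcam+ cells. At an unadjusted p under 0.05 it was also 0 of 5, beside 813 of all 11805 genes, and DESeq2 called 0 of 5 and 1.22% of all genes. The difference in log2 fold change, Epcam+ minus CCL206, was 0.17 for Ogn (95% interval -0.46 to 0.80), 0.40 for Prelp (-0.50 to 1.30), -0.14 for Bgn (-0.57 to 0.29), -0.26 for Dcn (-0.60 to 0.08) and -0.32 for Lum (-0.73 to 0.08). The intervals for Ogn and Prelp were wide, and differences of 0.80 and 1.30 lay at their upper ends.

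**Figure D3:**
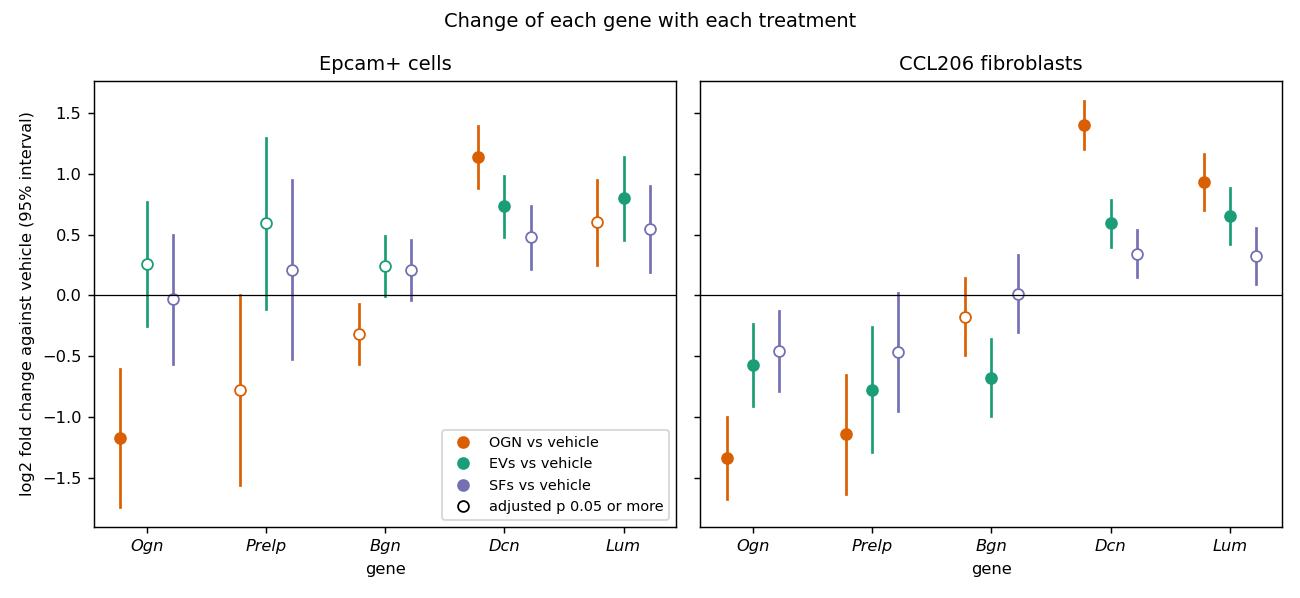
Log2 fold change of each gene against vehicle for OGN, EVs and SFs in Epcam+ cells and CCL206 fibroblasts, with 95% intervals, where filled points had an adjusted p under 0.05. The 3 treatments share the same 4 vehicle libraries in each population. With OGN, Ogn and Prelp lay below 0 and Dcn and Lum above 0 in both panels.

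To ask whether Ogn moved by another amount than each relative, the log2 ratio of Ogn to the relative was taken within each library, which needs no scaling between libraries (0.5 was added to each count). In CCL206 fibroblasts the ratio of Ogn to Dcn went from -3.56 ± 0.21 (SD, n = 4) with vehicle to -6.29 ± 0.27 with OGN, a difference of -2.73 (exact two-sided permutation test, p = 0.0286, adjusted p = 0.0457 over 8 ratios, lower in 4 of 4 mice). The ratio to Lum differed by -2.26 and the ratio to Bgn by -1.15, with the same exact permutation p and adjusted p and without overlap between the groups. With 4 libraries against 4, 0.0286 is the smallest p that this test can give. Ogn thus fell against Bgn as well as against the genes that rose.

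The ratio of Ogn to Prelp was the exception. It went from 0.79 ± 0.20 (SD, n = 4) with vehicle to 0.61 ± 0.45 with OGN in CCL206 fibroblasts, a difference of -0.19 (exact permutation p = 0.514, adjusted p = 0.543). In Epcam+ libraries this ratio differed by -0.25 (exact permutation p = 0.543, adjusted p = 0.543), and it was lower in 2 of 4 mice. A different amount of change for Ogn and Prelp was therefore not shown in either population. The other Epcam+ ratios differed by -2.30 to Dcn and -1.78 to Lum (each exact permutation p = 0.0286, adjusted p = 0.0457) and by -0.84 to Bgn (exact permutation p = 0.0857, adjusted p = 0.114).

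**Figure D4:**
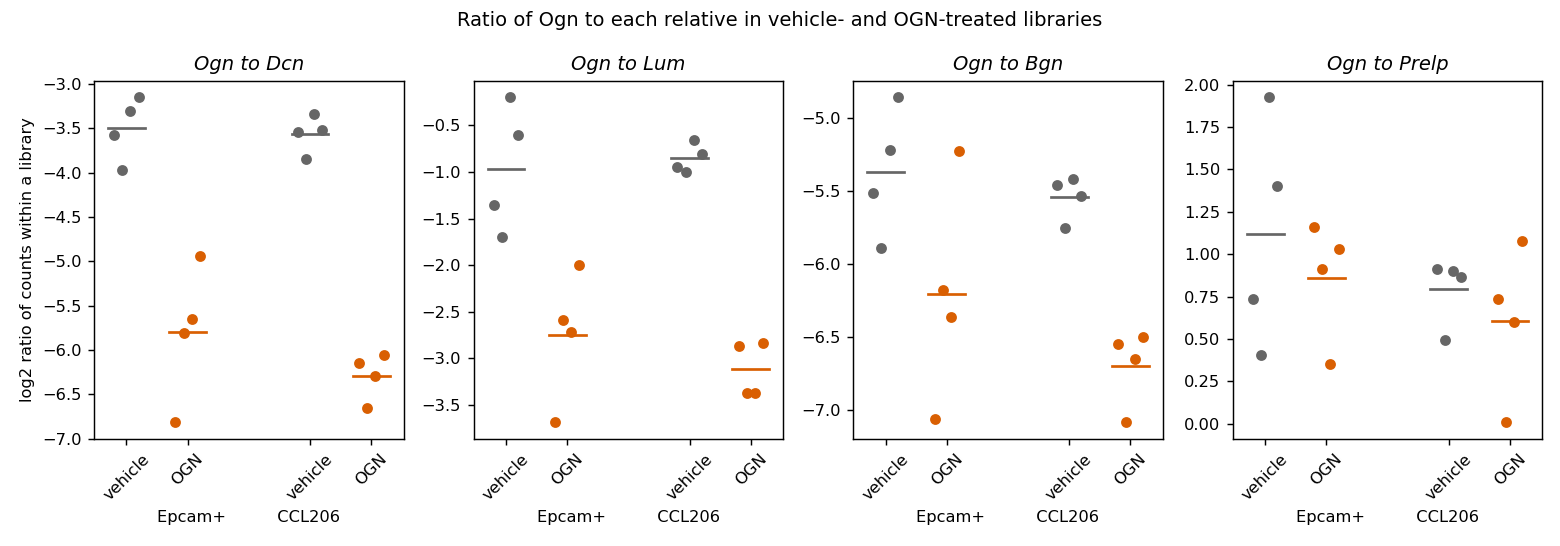
Log2 ratio of the Ogn count to the count of each relative within a library, for vehicle and OGN libraries of each population, with a line at the mean of 4. The Ogn to Dcn and Ogn to Lum ratios were lower in every OGN library than in any vehicle library, whereas the Ogn to Prelp values of the groups overlapped.

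The make-up of the group shifted accordingly. As shares of the summed CPM per kb of the 5 genes in CCL206 fibroblasts, Ogn went from 1.01% ± 0.10 (SD, n = 4) with vehicle to 0.373% ± 0.063 with OGN. Dcn went from 10.5% ± 0.53 to 25.4% ± 0.39, Lum from 2.40% ± 0.19 to 4.22% ± 0.58, Prelp from 0.578% ± 0.027 to 0.242% ± 0.033 and Bgn from 85.6% ± 0.61 to 69.8% ± 0.90. In Epcam+ libraries Ogn went from 1.15% ± 0.34 to 0.557% ± 0.29 and Dcn from 11.1% ± 0.72 to 25.3% ± 2.59. Bgn remained the largest share in both populations. The summed CPM of the 5 genes in CCL206 fibroblasts was 2886 ± 174 (SD, n = 4) with vehicle and 3575 ± 231 with OGN, so the total did not fall with Ogn.

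None of the 3 other SLRPs passed the test with OGN in either population. Podnl1 stood at 6.80, 10.5, 10.7 and 9.57 CPM with vehicle and 7.87, 9.79, 10.5 and 5.63 CPM with OGN in CCL206 fibroblasts (log2 fold change -0.18, 95% interval -0.59 to 0.24), and its log2 fold change was -0.92 (-1.92 to 0.08) in Epcam+ libraries on 3 to 26 counts. Tsku differed by -0.06 (-0.30 to 0.18) in CCL206 fibroblasts and by -0.35 (-0.61 to -0.09, adjusted p = 0.175) in Epcam+ libraries. Chadl had 2 to 39 counts in these libraries and 95% intervals from -0.48 to 1.22 in CCL206 fibroblasts and from -0.87 to 1.34 in Epcam+ libraries.

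The genes that build the sugar chains of SLRPs were read against the shares of all genes called with OGN, 2.7% in Epcam+ cells and 4.56% in CCL206 fibroblasts. Of 18 genes for the linkage region and chondroitin or dermatan sulfate, 0 were called in Epcam+ cells (median log2 fold change 0.04) and 1 in CCL206 fibroblasts (median 0.09), namely Csgalnact2, a chondroitin chain-initiating transferase, which fell (-0.38, SE 0.09, adjusted p = 0.017). For keratan sulfate 0 of 6 genes were called in either population, and for sulfate supply 0 of 5. The log2 medians over all tested genes were 0.00 in Epcam+ cells and -0.01 in CCL206 fibroblasts, and with lists of this size such counts do not set these genes apart from the rest.

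Among 14 other proteoglycan genes, Sdc2, the heparan sulfate carrier syndecan-2, fell in Epcam+ cells (-0.61, SE 0.13, adjusted p = 0.0077) and in CCL206 fibroblasts (-0.47, SE 0.09, adjusted p = 0.0038). Col12a1, a collagen that associates with fibrils, fell in Epcam+ cells (-0.83, SE 0.20, adjusted p = 0.021), and Sdc1, syndecan-1, rose in CCL206 fibroblasts (0.48, SE 0.10, adjusted p = 0.0061). The other 12 in each population did not pass. Over all tested genes 2.7% were called in Epcam+ cells and 4.56% in CCL206 fibroblasts.

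The fibrillar collagens that SLRPs bind were not called, 0 of 6 in either population, beside those same shares of 2.7% and 4.56%. In CCL206 fibroblasts their log2 fold changes ran from -0.06 to 0.65 with a median of -0.02. In Epcam+ libraries all 6 were below 0, from -0.36 to -0.13 with a median of -0.30.

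Of 9 genes for processing and turnover of matrix, 3 were called higher and 1 lower in CCL206 fibroblasts. Of all genes 4.56% were called there, 1.86% lower and 2.7% higher, and in Epcam+ cells 1.22% lower and 1.48% higher. Mmp13, a collagenase, rose (1.14, SE 0.18, adjusted p = 8.4e-04), and so did Mmp3, a stromelysin that cleaves proteoglycan cores (0.62, SE 0.12, adjusted p = 0.0046). Adamts5, an aggrecanase, fell (-0.74, SE 0.12, adjusted p = 0.0014). In Epcam+ libraries Mmp13 rose (1.59, SE 0.39, adjusted p = 0.025) and Pcolce, which enhances procollagen processing, fell (-0.33, SE 0.08, adjusted p = 0.026). The list therefore held calls in both directions.

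**Figure D5:**
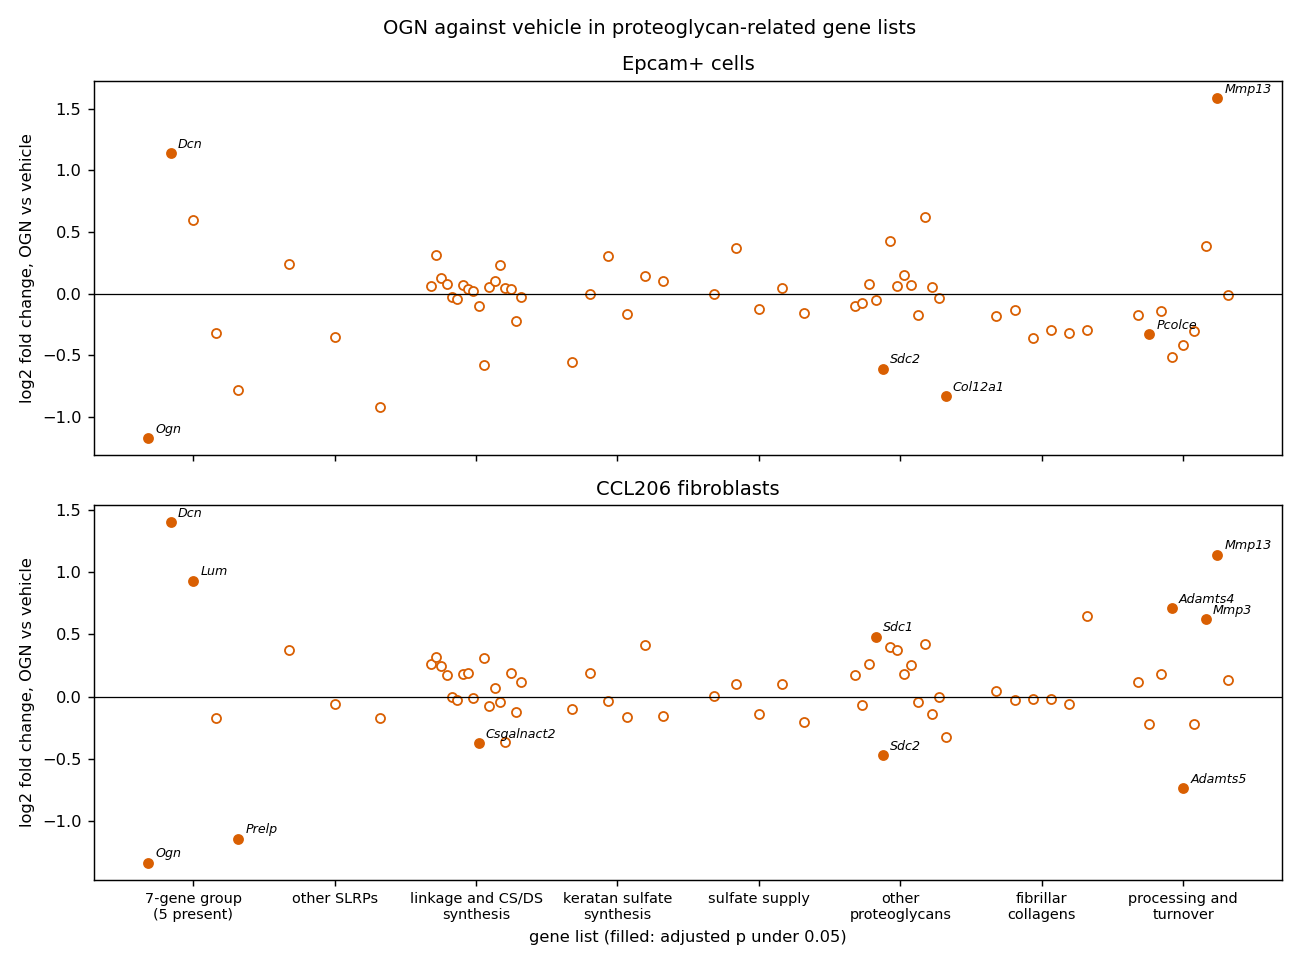
Log2 fold change with OGN against vehicle for each gene of the proteoglycan-related lists in both populations, where filled and named points had an adjusted p under 0.05. The calls lay among the 5 SLRP genes, the processing genes and the other proteoglycans, with Csgalnact2 in CCL206 fibroblasts. The 6 fibrillar collagens had none. Over all tested genes 2.7% were called in Epcam+ cells and 4.56% in CCL206 fibroblasts.

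EVs and SFs, which share their vehicle libraries with OGN, gave another pattern for Ogn in Epcam+ cells. Ogn stood at 9.45, 7.37, 14.9 and 15.5 CPM with EVs and at 11.0, 7.18, 7.08 and 11.9 CPM with SFs, both overlapping vehicle. The log2 fold change was 0.26 with EVs (95% interval -0.25 to 0.77) and -0.03 with SFs (-0.56 to 0.50). In CCL206 fibroblasts Ogn stood at 32.1, 38.6, 31.7 and 22.9 CPM with EVs and at 32.4, 33.7, 36.5 and 33.6 CPM with SFs. All of these were below every vehicle library, as the ranges did not overlap in either direction for 23.4% of all genes with EVs and 6.91% with SFs.

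With EVs in CCL206 fibroblasts 5 of 5 genes were called, but so were 36% of all genes, 16.2% lower and 19.8% higher. With the length trend taken out in the fit, 26.2% of all genes were called. Ogn fell (-0.57, SE 0.16, adjusted p = 0.014), Bgn fell (-0.68, SE 0.15, adjusted p = 0.0065), Prelp fell (-0.77, SE 0.24, adjusted p = 0.023), Dcn rose (0.59, SE 0.09, adjusted p = 0.0021) and Lum rose (0.66, SE 0.11, adjusted p = 0.0027). Prelp was at 22.8, 17.4, 18.7 and 5.59 CPM, the lowest value coming from mouse 4. The summed fibroblast marker CPM was 10767, 8100, 12109 and 6878 in mice 1 to 4, against 10837 to 12189 with vehicle. The sum of the 3 genes present from the mesothelial list, Msln, Upk1b and Krt19, was 165 to 364 CPM with EVs. This was above the 104 to 155 of every CCL206 vehicle library. In Epcam+ vehicle libraries the same sum was 2251 to 2427, so these genes do not tell mesothelial cells from the Epcam+ fraction. The part of the shifts in the fibroblast sum and in this sum in these calls was not tested. Without the EV-treated CCL206 libraries of mice 2 and 4, 4 of 5 were called where 5.48% of all genes were, Prelp was not (-0.40, adjusted p = 0.201), Ogn was at -0.58 (adjusted p = 0.021), Bgn at -0.38 (adjusted p = 0.037), Dcn at 0.47 (adjusted p = 0.0014) and Lum at 0.45 (adjusted p = 0.013). With all libraries of mouse 2 left out edgeR called 0 of 5 (adjusted p 0.056 to 0.113) and 0.162% of all genes, and with those of mouse 4 left out it called Dcn and Lum and 6.07% of all genes. The fit of only the 8 libraries compared called 1 of 5, Lum (0.65, adjusted p = 0.049), and 3.34% of all genes. Leaving out mouse 3 ended the call for Ogn (adjusted p = 0.058).

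In Epcam+ libraries EVs raised Dcn (0.73, SE 0.12, adjusted p = 0.0041) and Lum (0.80, SE 0.17, adjusted p = 0.020), 2 of 5 where 0.888% of genes were called, 0.35% lower and 0.538% higher. Dcn stood at 168, 178, 183 and 199 CPM and Lum at 29.5, 34.8, 33.7 and 34.9 CPM, all above every vehicle library, as in 4.79% of all genes in either direction. Without the mouse term Lum was not called (adjusted p = 0.074). Leaving out mouse 1 ended the call for Lum, and leaving out mouse 2 or mouse 3 ended both, with adjusted p of 0.054 and 0.114 for Dcn and of 0.117, 0.079 and 0.280 without mouse 1, 2 and 3 for Lum. Fibrillar collagens rose in the same comparison, 4 of 6 called, and the summed fibroblast marker CPM ranged from 2982 to 3554 against 2115 to 2941 with vehicle. Their part in the rise of Dcn and Lum was not tested.

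The change with EVs differed between the populations for 3 of the 5 genes, in a test where 23.8% of all genes were called, 11.8% lower and 12% higher in Epcam+ cells. The difference in log2 fold change, Epcam+ minus CCL206, was 0.87 for Ogn (SE 0.28, adjusted p = 0.027), 0.94 for Bgn (SE 0.21, adjusted p = 0.0059) and 1.39 for Prelp (SE 0.40, adjusted p = 0.018). Without the EV-treated CCL206 libraries of mice 2 and 4 none of the 3 was called (adjusted p = 0.132, 0.107 and 0.184), in a fit that called 0.279% of all genes. For Ogn the call ended without any 1 mouse (adjusted p = 0.054, 0.055, 0.157 and 0.102 without mouse 1, 2, 3 and 4). It ended without mouse 2 for Bgn (adjusted p = 0.055) and without mouse 2 or mouse 4 for Prelp (adjusted p = 0.087 each). Dcn (0.16, 95% interval -0.18 to 0.50) and Lum (0.17, -0.23 to 0.57) were not called, and were at 0.27 and 0.35 without those 2 libraries. With SFs edgeR called 0 of 5 and 0% of all genes, with 590 genes and none of the 5 at an unadjusted p under 0.05.

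SFs called 0 of 5 genes in either population, in comparisons where edgeR called 0.23% of all genes for the Epcam+ fraction (0.0768% lower, 0.154% higher) and 0.0599% for the fibroblast line (0% lower, 0.0599% higher). An unadjusted p under 0.05 was found for Dcn and Lum in Epcam+ cells, as for 913 of all 11716 genes. In CCL206 fibroblasts it was found for Ogn, Dcn and Lum, as for 621 of all 11689 genes. In Epcam+ cells the log2 fold change was 0.48 for Dcn (adjusted p = 0.203) and 0.55 for Lum (adjusted p = 0.348). In CCL206 fibroblasts the log2 fold change was -0.46 for Ogn (95% interval -0.79 to -0.13, adjusted p = 0.697), -0.47 for Prelp, 0.34 for Dcn, 0.32 for Lum and 0.01 for Bgn. DESeq2 called 1 of the 5 there, Dcn (adjusted p = 0.025), and 0.274% of all genes. The fit that held only the 8 libraries compared called 4 of 5, all but Bgn, with an adjusted p of 0.0080 for Ogn, where it called 2.63% of all genes, and the fit without the EV-treated libraries called Ogn and Dcn and 0.924% of all genes. SF and vehicle values did not overlap for Ogn, Prelp, Dcn and Lum in this population, as in 6.91% of all genes.

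Set against EVs and SFs directly, OGN left Ogn lower. In CCL206 fibroblasts Ogn was lower with OGN than with SFs by a log2 difference of -0.88 (SE 0.16, adjusted p = 0.0062, where 2.79% of genes were called, 0.881% lower and 1.91% higher). Against EVs it was -0.76 (SE 0.17, adjusted p = 0.0041, where 37.6% were called, 20.2% lower and 17.5% higher). In Epcam+ libraries the log2 differences were -1.14 against SFs (SE 0.27, adjusted p = 0.030, where 1.91% of genes were called, 1.09% lower and 0.819% higher) and -1.43 against EVs (SE 0.26, adjusted p = 0.0025, where 2.22% were called, 1.55% lower and 0.666% higher). Ogn was lower with OGN in 4 of 4 mice in each of these comparisons. Without the mouse term the Epcam+ difference from SFs had an adjusted p of 0.116, and it ended without mouse 1 (-0.76, adjusted p = 0.342), 3 (adjusted p = 0.095) or 4 (adjusted p = 0.092). That difference was called in 6 of 12 other settings. The Epcam+ difference from EVs ended without mouse 3 (adjusted p = 0.069), and those in CCL206 fibroblasts without mouse 2 (adjusted p = 0.067 against SFs and 0.076 against EVs) or, against SFs, mouse 3 (adjusted p = 0.115). Without the EV-treated CCL206 libraries of mice 2 and 4 the difference from EVs was -0.76 (adjusted p = 0.0015), and in the fit of only the 8 libraries compared it was -0.75 and not called (adjusted p = 0.066).

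Dcn differed between OGN and SFs in both populations and Lum in CCL206 fibroblasts. Dcn was higher with OGN than with SFs by 1.06 in CCL206 fibroblasts (SE 0.09, adjusted p = 1.4e-05) and by 0.66 in Epcam+ libraries (SE 0.12, adjusted p = 0.0043), and Lum by 0.61 in CCL206 fibroblasts (SE 0.11, adjusted p = 0.0045). Dcn in Epcam+ libraries ended at an adjusted p of 0.055 without mouse 1 and 0.059 without mouse 3, and Lum in CCL206 fibroblasts at 0.067 without mouse 2. In Epcam+ libraries Lum was not called against SFs (0.05, adjusted p = 0.920), and against EVs neither Dcn (0.41, adjusted p = 0.078) nor Lum (-0.20, adjusted p = 0.659) was. Against EVs in CCL206 fibroblasts Dcn was higher with OGN by 0.81 (SE 0.09, adjusted p = 6.0e-05). Without the EV-treated CCL206 libraries of mice 2 and 4 that difference was 0.93 (adjusted p = 8.02e-08), and Lum and Prelp, not called with them (adjusted p = 0.054 and 0.252), were called at 0.49 (adjusted p = 0.0029) and -0.73 (adjusted p = 0.013).

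Bgn and Prelp separated less evenly. Bgn was lower with OGN than with SFs (-0.53, SE 0.12, adjusted p = 0.021) and with EVs (-0.56, SE 0.12, adjusted p = 0.0088) in Epcam+ libraries (without mouse 1, adjusted p = 0.069 and 0.051, and without mouse 2, 0.106 against SFs), and higher with OGN than with EVs in CCL206 fibroblasts (0.50, SE 0.15, adjusted p = 0.018), although not without the EV-treated libraries of mice 2 and 4 (0.20, adjusted p = 0.211), without all libraries of mouse 2 or of mouse 4 (adjusted p = 0.175 and 0.120) or with only the 8 libraries compared (adjusted p = 0.093). Prelp was lower with OGN than with EVs in Epcam+ libraries (-1.37, SE 0.35, adjusted p = 0.039), a call that ended without mouse 1, 2 or 4 (adjusted p = 0.337, 0.128 and 0.101). These comparisons share the OGN libraries of a population.

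The genes whose levels followed Ogn most closely were ranked by Pearson's r of log2 CPM, after the mean of each mouse was taken out, over the 16 libraries of a population. In CCL206 fibroblasts, among 9905 genes, these were Bcl2 (r = 0.933), Negr1 (0.931), Cx3cl1 (0.923), Fkbp5 (0.921) and Anxa8 (0.919). Prelp ranked 63 (r = 0.806), whereas Dcn (r = -0.891, rank 9879) and Lum (r = -0.851, rank 9846) stood at the other end. In Epcam+ libraries, among 10096 genes, they were Spg20 (0.921), Fkbp5 (0.900), Col8a1 (0.895), Cav1 (0.878) and Timp3 (0.874), and Bgn ranked 153 (r = 0.709), while Prelp had too few counts there to be compared. The libraries share treatments and fibroblast content, so these values only describe likeness.

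Position in the genome was compared with the change. Of the 3 nearest tested genes on each side of Ogn none was called with OGN in either population. One of them, Cenpp, lies on the opposite strand over Ogn and shares 1155 of the 6135 exonic bases of Ogn, and whether the counting used strand is not given in the sources used here, so reads there cannot be told apart if it did not. Cenpp itself had log2 fold changes of 0.17 (95% interval -0.65 to 0.99) and -0.53 (-1.22 to 0.16). Prelp shares 350 of 7031 exonic bases with Gm15851 on the opposite strand, and Dcn, Lum and Bgn share 0.

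Dcn and Lum are each other's nearest tested neighbour and both rose in CCL206 fibroblasts. Atp2b1, a plasma membrane calcium pump gene and the next tested gene beyond Lum at 1341927 bases, rose there too (0.75, SE 0.09, adjusted p = 5.5e-05). Near Prelp, which fell, Chil1, the chitinase-like gene 252054 bases away, rose with OGN in both populations (log2 fold change 2.17 in Epcam+ cells and 2.60 in CCL206 fibroblasts), so the only called neighbour of Prelp moved the other way. The 3 nearest tested genes on each side of Bgn were not called.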

How the data were processed

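RNA was sequenced from 32 libraries, 16 of Epcam+ cells and 16 of CCL206 fibroblasts. The authors trimmed reads with Trimmomatic 0.30 and deposited raw read counts per gene, and the processing notes also name DESeq2 1.34.0. Strandedness of the counting is not given in the sources used here. Total counts ran from 1805914 to 17675454. The counts were tested with edgeR 4.0.16 (R 4.3.3, limma 3.58.1; TMM, filterByExpr, glmQLFit) with terms for mouse and treatment within each population, and over all 32 libraries for interactions and for the vehicle comparison. Adjusted p is by Benjamini-Hochberg over all tested genes, with a threshold of 0.05. The script was tested on simulated data. Ogn ratios were compared by exact permutation over 70 regroupings. Alternatives were DESeq2 1.42.0, RLE scaling, other filters and fewer libraries.

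Mouse numbers in the labels pair the libraries. Deviations from group means correlated on average at 0.088 to 0.224 between libraries of the same mouse and at -0.070 to -0.030 between mice. The lowest of 48 chi-square statistics per degree of freedom between replicates was 2.98, so no library duplicated another of its condition. Libraries of different conditions were not compared in this way.

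The members and lists were chosen with earlier results of these data known. From each list at most the 3 called genes of smallest p were named, besides all SLRPs and the 3 nearest tested genes on each side. Transcript lengths, matched for 98.3% of genes, are the longest in GENCODE vM39, used in place of the RefSeq lengths first planned. Positions and promoters are from RefSeq, and the labels name a later build, whose coordinates were not used. Protein sequences were not used here. The study's fibroblast marker list was used without Dcn and Lum.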

Additional observations from a re-analysis of the deposited data

Results flagged for a closer look

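The change with EVs differed between the Epcam+ and CCL206 libraries of the same cultures for 3 of the 5 SLRP genes by edgeR's interaction test, where 23.8% of all genes were called. The difference in log2 fold change, Epcam+ minus CCL206, was 0.87 for Ogn (adjusted p = 0.027), with EV changes of 0.26 in Epcam+ cells and -0.57 in CCL206 fibroblasts. For Bgn it was 0.94 (adjusted p = 0.0059), with EV changes of 0.24 and -0.68. For Prelp it was 1.39 (adjusted p = 0.018), with EV changes of 0.59 and -0.77. The EV-treated CCL206 libraries of mice 2 and 4 fell most with transcript length against the vehicle mean. Without them the differences were 0.86, 0.62 and 0.98 (adjusted p = 0.132, 0.107 and 0.184), where 0.279% of all genes were called. The part of that length trend in the result was not tested. For Ogn the call ended whichever mouse was left out (adjusted p = 0.054 to 0.157). It ended for Bgn without mouse 2 (adjusted p = 0.055) and for Prelp without mouse 2 or mouse 4 (adjusted p = 0.087 each). None of the 40 sets of 4 libraries for the 5 genes held a library that stood apart by Dixon's test.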

How the results depend on the processing

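Over all results and settings 935 alternative values were computed, of which 810 kept their direction and their side of the threshold (or moved within the spread), 66 fell short of the threshold, 27 came to pass it, 23 moved beyond the spread and 9 changed sign. With OGN in CCL206 fibroblasts the calls for Ogn, Dcn and Lum held under all 12 alternatives. The cause of the changes below was not tested.

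Without the replicate block for mouse, Ogn in Epcam+ cells was at -1.21 with OGN (adjusted p = 0.075) and at -1.15 for OGN against SFs (adjusted p = 0.116). In Epcam+ cells 1 of 5 genes was then called with OGN, beside 1.69% of all genes, and 1 with EVs, beside 0.0768%. With only the 8 libraries compared, Ogn in Epcam+ cells was at -1.20 with OGN, which was not called, and at -1.11 for OGN against SFs. Over 12 other settings, the difference between OGN and SFs was called for Ogn in Epcam+ cells in 6. In Epcam+ cells 1 gene each was called with OGN, EVs and SFs, beside 1.61%, 0.761% and 0.364% of all genes. In CCL206 fibroblasts that setting gave Ogn -0.59 with EVs (adjusted p = 0.073), -0.46 with SFs and -0.75 for OGN against EVs (adjusted p = 0.066), neither EV value passing. It called 1 gene with EVs, beside 3.34% of all genes, and 4 with SFs, beside 2.63%. Without the EV-treated libraries Ogn was at -1.12 for OGN against SFs in Epcam+ cells and at -0.45 with SFs in CCL206 fibroblasts. That fit called 2 genes with SFs in CCL206 fibroblasts, beside 0.924% of all genes, and DESeq2 called 1, beside 0.274%. The difference between populations in the EV change of Ogn was 0.85 with only the 2 treatments compared (adjusted p = 0.064) and 0.86 without the EV-treated CCL206 libraries of mice 2 and 4, an alternative chosen after seeing the data.

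Leaving out each mouse in turn gave these ranges for Ogn in Epcam+ cells: -1.32 to -1.08 with OGN and -0.33 to 0.14 with SFs. They were -1.60 to -1.29 for OGN against EVs and -1.28 to -0.76 for OGN against SFs. With OGN 1 to 2 genes were called there, beside 1.23% to 2.29% of all genes. With SFs it was 0 to 1, beside 0.094% to 0.273%, and with EVs 0 to 2, beside 0.145% to 1.33%. In CCL206 fibroblasts Ogn ranged from -0.76 to -0.41 with EVs, where 0 to 5 genes were called beside 0.162% to 38.9% of all genes. It ranged from -0.99 to -0.55 for OGN against EVs and from -0.99 to -0.78 for OGN against SFs. The difference between populations for Ogn ranged from -0.0096 to 0.31 with OGN and from 0.67 to 1.07 with EVs, where each fit ended the call. Signs changed among small values, namely Ogn with SFs in Epcam+ cells (0.09 without mouse 3 and 0.14 without mouse 4), Bgn with SFs in CCL206 fibroblasts (-0.011 to 0.037, and -0.0032 with the length trend taken out), Lum for OGN against SFs in Epcam+ cells (-0.017 to 0.11), and the differences between populations for Prelp (-0.24 to 0.71) and Bgn (-0.30 to 0.050) with OGN and for Lum (-0.079 to 0.32) with EVs.

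The exact sign-flip test paired by mouse cannot pass the threshold with 4 pairs and left the Ogn ratios at the same values. Low counts limit Ogn and Prelp in Epcam+ cells, at 14 to 130 and 6 to 78 counts a library with vehicle or OGN, and shares and levels carry counting error beside the spread between mice.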
